A study of Homo sapiens with 9 samples.

Results

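The genes described here are the numbered zinc finger genes of HT-29 cells, those whose symbol is ZNF followed by digits and at most 1 final letter, and whose mean raw count over the 9 libraries was at least 200. Of 62710 gene identifiers in the table, 533 carried such a symbol, and 287 of these reached the minimum. The remaining ones were under it, among them 118 that were still tested and 78 with 0 counts in all 9 libraries. The genes were thus chosen by their mean raw count over all libraries, so levels are given as a description. Just above it were ZNF708 (mean raw count 200.8), ZNF250 (202.1) and ZNF782 (203.2), and just below it were ZNF675 (193.7), ZNF222 (192.9) and ZNF251 (192.8).

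HT-29 is a human colorectal adenocarcinoma cell line, and all samples were of this line and labelled WT. The groups compared were 3: non-stimulated cells (NS), cells given flagellin (F) and cells given ADP-heptose (AH), with 3 libraries of poly(A) RNA in each. Per the study's methods, both agents were given at 500 ng/mL for 2.5 hours. The question was which transcripts each bacterial product changes. ADP-heptose is a sugar nucleotide of the bacterial lipopolysaccharide pathway that is sensed in the cytosol through the kinase ALPK1, and flagellin is the protein of bacterial flagella that is sensed at the cell surface by TLR5. Both routes lead to NF-κB.

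Most ZNF genes encode proteins with arrays of C2H2 zinc fingers, each finger holding a zinc ion and reading a few bases of DNA. Many carry a KRAB domain, which binds TRIM28 (KAP1). TRIM28 in turn brings SETDB1, HP1 proteins and histone deacetylases to the site, so that the chromatin there is silenced. Large clusters of KRAB zinc finger genes lie on chromosome 19, and many of their products bind transposable elements. Other ZNF proteins act in RNA handling, ribosome quality control, mitosis or differentiation.

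The libraries held 30770448 to 58272772 counts, with 35040844 to 37537705 in NS, 30770448 to 38304035 in F and 50054773 to 58272772 in AH. AH replicate 3 stood apart, with an SD of log2 differences to the other AH libraries of 0.378 and 0.383, against 0.135 between these and 0.167 to 0.196 within the other groups. Many calls and medians that change without it are given both ways. The epithelial genes EPCAM (30326 to 53263 raw counts) and KRT8 (132212 to 295648) were abundant, whereas the intestinal factors CDX1 (0 to 12) and CDX2 (17 to 48) were nearly absent and PTPRC, a leukocyte gene, had at most 2 counts. The response was present in both stimulated groups: the chemokine gene CXCL8 had a mean normalized count of 191.5 in NS, 1076 in F and 39270 in AH. Normalized counts are raw counts scaled by edgeR's TMM factors to a common library size.

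Of the 287 ZNF genes, 284 are annotated as protein coding and 3 as pseudogenes (ZNF271P, ZNF321P and ZNF702P). Together they took 0.723% ± 0.0152 of the counts in NS, 0.707% ± 0.00661 in F and 0.613% ± 0.0503 in AH (SD, n = 3 each). Per kilobase of the longest annotated transcript, the mean level over the 9 libraries was highest for ZNF787 (2074 normalized counts per kb), followed by ZNF703 (1667), ZNF146 (1393), ZNF664 (1309) and ZNF581 (1303). It was lowest for ZNF891 (14.59), ZNF26 (18.1), ZNF704 (18.69), ZNF268 (23.34) and ZNF81 (30.2).

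After ADP-heptose, ZNF genes fell far more often than they rose. Compared with NS, 41 of the 287 were lower and 7 were higher at an adjusted p under 0.05 (edgeR's quasi-likelihood test, Benjamini-Hochberg over 17412 genes), which is 14.3% and 2.44% of them. Over all genes tested, 4.42% were lower and 7.48% were higher, and among the genes with a mean count of at least 200 these shares were 5.73% and 9.21%. Most changes were below 2-fold: only ZNF697 rose and only ZNF792 fell by at least that much, against 2.89% and 0.471% of all genes tested. In bulk RNA, fewer transcripts per cell and fewer cells with the transcript cannot be told apart.

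The shift was spread over the set rather than held by the called genes alone. The median log2 fold change of the 287 genes was −0.142, and 215 of them (74.9%) lay below 0, against a median of 0.00873 and 48.9% over all genes tested. In 104 ZNF genes (36.2%) the 3 AH libraries all lay below the 3 NS libraries, and in 20 (6.97%) all above. The same non-overlap was found in 14.7% and 15.4% of all genes tested. The lower and upper quartiles of the ZNF genes were at log2 fold changes of −0.314 and 0.00232. No set test was run, and since the genes were chosen with results of these data known, the shares are descriptions.

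**Figure D1:**
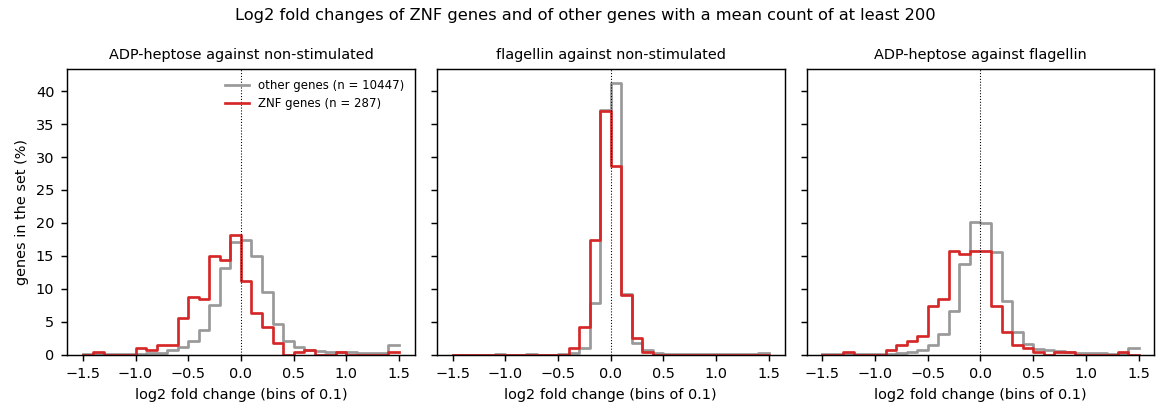
Distribution of log2 fold changes (horizontal axis, bins of 0.1, with larger changes held in the end bins) as a percent of each set (vertical axis) for the 287 ZNF genes and for 10447 other genes with a mean count of at least 200, in the 3 comparisons. The ZNF genes are shifted to the left in both comparisons of ADP-heptose, with medians of −0.142 and −0.113, and lie near 0 after flagellin, with a median of −0.0246.

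The extent depended on AH replicate 3, while the direction did not. Each AH library alone had a negative median log2 difference of the ZNF genes from the NS mean: −0.115, −0.126 and −0.233 in replicates 1, 2 and 3. Without replicate 3, 66 ZNF genes (23.0%) were lower and 12 (4.18%) higher, against 10.1% and 15.2% of the genes with a mean count of at least 200, and the median of the ZNF genes was −0.12. Of the 48 genes called with all libraries, 47 were among the 78 called without it. Transcript GC content also moved with that library: the 3549 most GC-rich genes with a mean count of at least 200 had a median of 0.119 with all libraries and 0.0184 without it. With offsets that model transcript length and GC content per library, 78 ZNF genes (27.2%) were lower and 9 (3.14%) higher, while the share of lower genes with a mean count of at least 200 rose to 12.7% and that of higher genes to 10.8%. The median of the ZNF genes was then −0.156 and that of these genes −0.0302.

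The sequences upstream of the RefSeq start sites of called genes are shown so that their letters can be set beside the changes. The RefSeq promoter table (GRCh38.p14, 250 bases before to 50 after each start site) held 247 of the 287 genes, and the 250 bases before the start were used. The 3 risers and 3 fallers shown are those with the largest changes among called genes with an entry and at least 100 of these bases in no annotated exon. The longest such stretch is printed 5′ to 3′ on the gene's strand. The RefSeq starts differ from the ends of some gene spans given below, which come from GENCODE. By those spans the stretch of ZNF641 lies within the gene, and those of ZNF697 and ZNF792 are each separated from the gene by a gap. Capitals mark the letters GGGCGG (a GC box, bound by SP1), CCGGAAG (an ETS core) or the NF-κB consensus (GGG, a purine, any base, A or T, 2 pyrimidines and CC), each searched on both strands. The stretches lie at chr1:119648267-119648410 (minus strand, ZNF697), chr12:48350983-48351169 (minus, ZNF641), chr19:58182811-58183028 (plus, ZNF274), chr19:34964230-34964479 (minus, ZNF792), chr9:94259048-94259297 (plus, ZNF169) and chr19:52962912-52963131 (minus, ZNF816).
ZNF697: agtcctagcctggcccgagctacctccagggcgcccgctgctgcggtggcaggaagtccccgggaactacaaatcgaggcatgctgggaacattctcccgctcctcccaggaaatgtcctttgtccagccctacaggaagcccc
ZNF641: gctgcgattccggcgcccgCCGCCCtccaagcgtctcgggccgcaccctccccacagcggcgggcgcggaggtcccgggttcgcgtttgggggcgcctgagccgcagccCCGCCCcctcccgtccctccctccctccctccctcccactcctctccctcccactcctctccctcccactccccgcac
ZNF274: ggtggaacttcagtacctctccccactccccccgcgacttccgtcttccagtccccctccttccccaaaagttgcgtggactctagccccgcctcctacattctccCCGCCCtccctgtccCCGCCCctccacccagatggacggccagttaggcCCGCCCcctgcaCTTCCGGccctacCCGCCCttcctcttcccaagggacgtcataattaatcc
ZNF792: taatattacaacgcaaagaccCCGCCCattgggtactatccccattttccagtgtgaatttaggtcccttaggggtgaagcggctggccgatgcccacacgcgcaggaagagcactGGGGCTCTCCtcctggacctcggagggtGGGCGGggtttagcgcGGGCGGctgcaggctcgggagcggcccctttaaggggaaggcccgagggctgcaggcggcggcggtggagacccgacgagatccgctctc
ZNF169: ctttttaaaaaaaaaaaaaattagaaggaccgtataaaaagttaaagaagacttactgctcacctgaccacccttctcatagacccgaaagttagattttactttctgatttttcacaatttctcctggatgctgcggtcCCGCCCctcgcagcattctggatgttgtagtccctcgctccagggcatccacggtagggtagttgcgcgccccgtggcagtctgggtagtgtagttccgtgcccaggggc
ZNF816: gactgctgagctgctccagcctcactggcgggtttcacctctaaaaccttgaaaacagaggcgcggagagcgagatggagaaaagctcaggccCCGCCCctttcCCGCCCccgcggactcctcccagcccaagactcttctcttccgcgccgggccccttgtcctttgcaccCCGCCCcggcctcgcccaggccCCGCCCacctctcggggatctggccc

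The printed stretch of ZNF697 held none of the 3 motifs as spelled here, and 1 match to the NF-κB consensus when base 6 was left free, a wider form added after seeing the data. Those of ZNF641, ZNF274, ZNF792, ZNF169 and ZNF816 held 2, 4, 3, 1 and 4 GC boxes. That of ZNF792, the largest faller, held the only match to the NF-κB consensus as spelled here. In the wider form ZNF792 also had 1 match, and the stretches of ZNF641, ZNF274, ZNF169 and ZNF816 had 0. ZNF274 held 1 ETS core. Over the 250 bases before the start, the GC box was found in 64.8% of the ZNF genes with an entry, 69.4% of the genes with a mean count of at least 200 and 42.3% of all 27305 promoters. The ETS core was found in 30.4%, 17.6% and 8.82% of these sets. The NF-κB consensus was found in 5.67%, 5.97% and 5.05%, and its wider form in 12.1%, 11.7% and 9.57%. Among the genes lower after ADP-heptose that had an entry, 23 of 32 held the GC box, 8 the ETS core and 2 the NF-κB consensus (5 in the wider form). Among the 6 higher genes with an entry, 5 held the GC box, 3 the ETS core and 2 the NF-κB consensus (3 in the wider form). A match is a description of the letters and not a site.

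ZNF697 showed the largest rise. It lies on chromosome 1 (119619422 to 119647773, minus strand, GRCh38, GENCODE 29). Its normalized counts were 196, 163.8 and 208.7 in NS, 213, 216.3 and 209.3 in F, and 604, 585 and 429.7 in AH. All AH libraries lay above all others, and the change was 2.85-fold (log2 fold change 1.51, SE 0.146, edgeR adjusted p 1.86e-05).

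ZNF641, on chromosome 12 (48337180 to 48351414), followed. Its normalized counts were 417.7, 434.2 and 410.8 in NS, 482.9, 463.4 and 505.3 in F, and 883.2, 885.7 and 698.3 in AH. The groups did not overlap, and the rise was 1.95-fold (log2 fold change 0.97, SE 0.106, edgeR adjusted p 5.38e-05).

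ZNF274 is a KRAB zinc finger protein known to bring TRIM28 and SETDB1 to the 3′ ends of other zinc finger genes. It lies on chromosome 19 (58183029 to 58213562, plus strand). Normalized counts were 322.8, 307.4 and 328.7 in NS, 278.2, 276.9 and 298.6 in F, and 492.4, 512.8 and 502.6 in AH. The AH libraries were close to each other and above all the rest (log2 fold change 0.65, SE 0.0927, edgeR adjusted p 0.000444). ZNF274 was the 1 ZNF gene on chromosome 19 that rose.

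ZNF286A had normalized counts of 201.1, 246.8 and 256.2 in NS, 272, 283.8 and 298.6 in F, and 423.3, 378.6 and 340.7 in AH. The F libraries lay between the other groups, and the rise after ADP-heptose was 1.62-fold (log2 fold change 0.70, SE 0.127, edgeR adjusted p 0.00297). ZNF670 had 250.6, 274.9 and 268.1 in NS, 269.9, 260.9 and 265.4 in F, and 357.4, 402.1 and 384.3 in AH. Here NS and F overlapped and AH was above both (log2 fold change 0.53, SE 0.101, edgeR adjusted p 0.00436). Both genes overlap another tested gene, ENSG00000233966 on the other strand for ZNF286A and the readthrough locus ZNF670-ZNF695 on the same strand for ZNF670.

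The remaining risers changed less. ZNF335, a subunit of histone H3K4 methyltransferase complexes, was 1272, 981.7 and 1101 in NS and 1422, 1295 and 1625 in AH (log2 fold change 0.37, edgeR adjusted p 0.0427). This call was lost in 10 of 18 alternative analyses, with adjusted p from 0.00858 to 0.164. ZNF706 was 2376, 2504 and 2382 in NS and 2984, 2896 and 3300 in AH (log2 fold change 0.34, edgeR adjusted p 0.00966), and its call was lost in 3 of 18 alternatives, with adjusted p from 0.000245 to 0.0603.

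**Figure D2:**
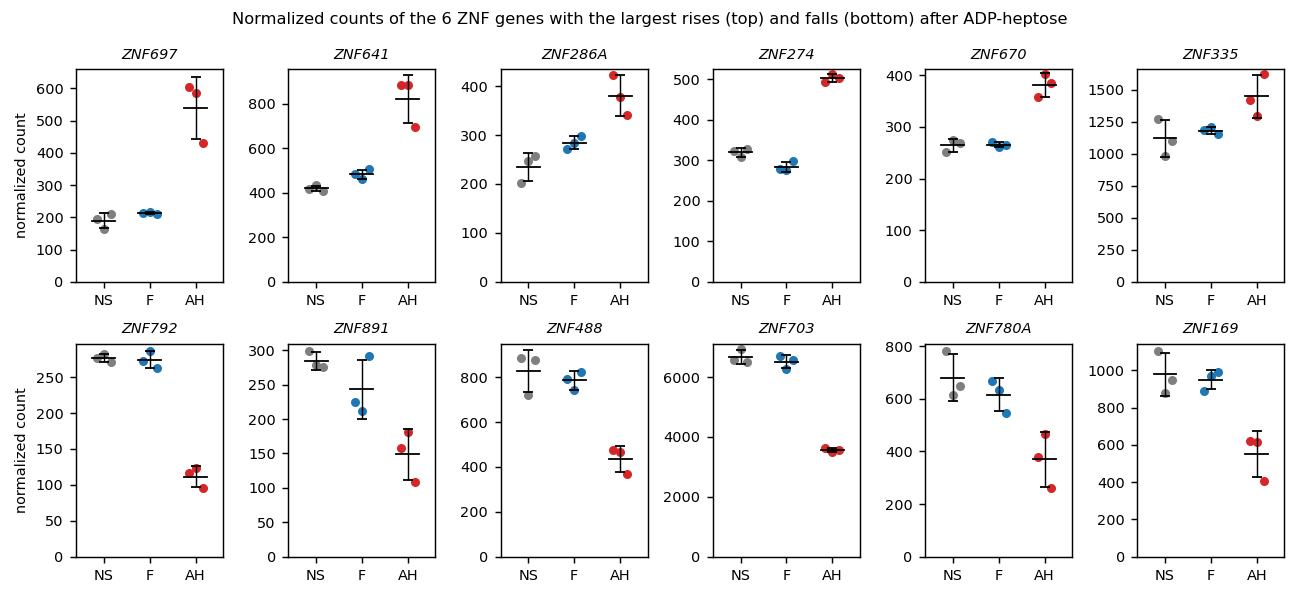
Normalized counts (vertical axes, from 0) in each library of non-stimulated (NS), flagellin (F) and ADP-heptose (AH) cells for the 6 ZNF genes with the largest rises and the 6 with the largest falls after ADP-heptose. Points are libraries and bars the mean ± SD of 3. The AH points lie above all NS points in the top row and below all NS points in the bottom row.

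ZNF792 showed the largest fall. This gene on chromosome 19 (34956354 to 34964049, minus strand) had normalized counts of 276.4, 281.6 and 271.4 in NS, 273, 286.1 and 262.9 in F, and 116.6, 122.9 and 95.19 in AH. NS and F overlapped, and the AH level was 0.405 times that of NS (log2 fold change −1.30, SE 0.127, edgeR adjusted p 1.86e-05).

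ZNF703, on chromosome 8 (37695751 to 37700021, plus strand), encodes a corepressor of the NET/NLZ family and is amplified in luminal breast cancers. It was the faller with the highest level, with normalized counts of 6582, 6924 and 6502 in NS, 6702, 6270 and 6557 in F, and 3642, 3491 and 3564 in AH. The 3 AH libraries differed little from each other and reached 0.535 times the NS mean (log2 fold change −0.90, SE 0.0627, edgeR adjusted p 8.59e-07). That p was the smallest among the ZNF genes.

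ZNF488, known as a partner of OLIG2 in oligodendrocyte differentiation, had normalized counts of 883.9, 718.1 and 874.6 in NS, 790, 741.4 and 824.3 in F, and 474.9, 465.7 and 370.1 in AH (log2 fold change −0.92, SE 0.118, edgeR adjusted p 0.0002). ZNF169 had 1105, 880.8 and 949.2 in NS, 890.3, 970.3 and 990.2 in F, and 623.2, 617.1 and 407.4 in AH (log2 fold change −0.83, SE 0.148, edgeR adjusted p 0.00263). In both genes AH replicate 3 was the lowest library, and the changes without it were −0.81 and −0.65.

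ZNF816 had normalized counts of 615.8, 599.1 and 584.9 in NS, 646.3, 548.1 and 574.2 in F, and 368.3, 293.6 and 378.1 in AH (log2 fold change −0.79, SE 0.114, edgeR adjusted p 0.000497). ZNF608 had 887, 797.7 and 790.3 in NS, 758, 949.7 and 867.7 in F, and 536.6, 567.8 and 388.8 in AH (log2 fold change −0.73, SE 0.137, edgeR adjusted p 0.0039). The AH libraries lay below all others in both genes.

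ZNF891 and ZNF780A fell by 0.92 and 0.88 on the log2 scale, each with AH replicate 3 lowest (108.5 and 260.7 normalized counts), and without it the changes were −0.74 and −0.68. ZNF891 overlaps ZNF140 on the other strand, which had a log2 fold change of 0.56 at a mean normalized count of 88. ZNF112, ZNF250, ZNF224 and ZNF572 completed the 12 largest falls, with log2 fold changes from −0.72 to −0.67 and adjusted p from 0.0012 to 0.0145. ZNF224 is a KRAB repressor first described at the aldolase A gene. The calls of ZNF112 and ZNF250 were lost in 1 and 2 of 18 alternatives.

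The other fallers had log2 fold changes between −0.61 (ZNF367) and −0.27 (ZNF639). ZNF398 was the most even of them, with 890.1, 838.1 and 861.7 normalized counts in NS and 566.6, 577.1 and 576.5 in AH (edgeR adjusted p 0.000171). In all 41 fallers the AH libraries lay below the NS libraries, and in all 7 risers above.

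**Figure D3:**
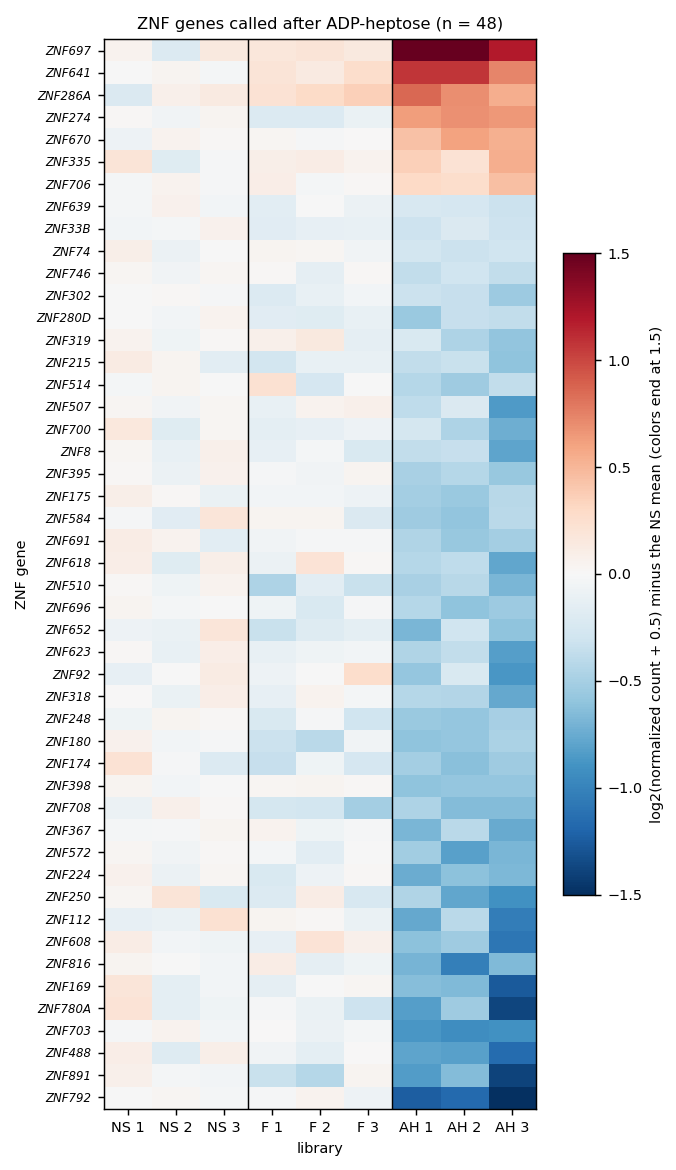
Log2(normalized count + 0.5) minus the NS mean (color, ends at 1.5 in either direction) for the 48 ZNF genes called after ADP-heptose (rows, ordered by log2 fold change) in the 9 libraries (columns). The 7 risers are at the top and the 41 fallers below; the AH columns are colored throughout and AH 3 is the deepest for many fallers.

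By role, of 8 ZNF genes listed for roles in chromatin or in the silencing of retroelements, ZNF274 rose and none fell. That is 12.5% higher against 7.48% of all genes tested. ZNF91, which represses SVA elements, had mean normalized counts of 450.5 ± 15.4 in NS and 372.7 ± 62.5 in AH (SD, n = 3 each), and the log2 change of −0.27 did not pass the test (edgeR adjusted p 0.192); it was −0.14 without AH replicate 3. ZNF644, a partner of the H3K9 methyltransferases G9a and GLP, had 2266 ± 19.2 and 2729 ± 345 (SD, n = 3 each, log2 fold change 0.27, edgeR adjusted p 0.0856), and without AH replicate 3 it was called higher (0.37, edgeR adjusted p 8.75e-06). ZNF143, ZNF518A, ZNF592, ZNF687 and ZNF532 had log2 fold changes from −0.23 to 0.09 and did not pass the test.

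None of the 6 genes of RNA handling, ribosomes and the spindle passed the test. ZNF207, the spindle assembly factor BuGZ, was the most abundant of them, with 12550 ± 92.3 normalized counts in NS and 13280 ± 802 in AH (SD, n = 3 each). Without AH replicate 3 it was called higher (log2 fold change 0.13, edgeR adjusted p 0.0392). The log2 fold changes of ZNF598, the ubiquitin ligase of collided ribosomes, and ZNF622, a factor of large subunit maturation, were 0.19 and 0.22 with edgeR adjusted p of 0.14 and 0.212. ZNF638, ZNF326 and ZNF330 had changes of −0.06, 0.05 and −0.21, and ZNF330 was called lower with the length and GC offsets. ZNF451, a SUMO ligase, had a change of −0.10.

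Among 12 genes of cancer, differentiation and signalling, ZNF703 and ZNF395 fell and none rose, which is 16.7% lower against 4.42% of all genes tested. Without AH replicate 3, ZNF131 and ZNF503 were also lower and ZNF267 was higher, and with the offsets these 3 were called too. ZNF395, a hypoxia-induced factor, had normalized counts of 1524, 1417 and 1564 in NS, 1478, 1452 and 1541 in F, and 1069, 1118 and 1015 in AH (log2 fold change −0.49, SE 0.075, edgeR adjusted p 0.000781). ZNF217, an oncogene amplified on chromosome 20, had 2563 ± 118 in NS and 2064 ± 506 in AH (SD, n = 3 each, log2 fold change −0.31, edgeR adjusted p 0.196), and the change was −0.12 without AH replicate 3. ZNF148 and ZNF281, related GC-rich sequence binders, had log2 fold changes of −0.25 and −0.15 with edgeR adjusted p of 0.094 and 0.471, and of −0.16 and 0.00092 without that library. ZNF267 was at 0.35 and just missed the threshold (edgeR adjusted p 0.0518). The other 6 had changes from −0.38 to 0.17.

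Among the partners of KRAB zinc finger proteins, 27 of 28 corepressor genes were tested, and 2 fell and 1 rose. These are 7.41% and 3.7%, against 4.42% and 7.48% of all genes tested, and the median log2 fold change was −0.0348. Without AH replicate 3, 6 were lower (ATF7IP, EHMT2, MPHOSPH8, SUV39H1, TRIM24 and UHRF1) and 1 higher, and with the length and GC offsets 6 were lower (ATF7IP, EHMT2, MPHOSPH8, SETDB1, TRIM33 and UHRF1) and none higher. UHRF1, a reader of hemimethylated DNA, fell by 0.32 (edgeR adjusted p 0.0101), and MPHOSPH8, a subunit of the HUSH complex, fell by 0.31 (edgeR adjusted p 0.0255). CHD4, the remodeler of the NuRD complex, rose by 0.53 (edgeR adjusted p 0.0473), and without AH replicate 3 the change was 0.30 (edgeR adjusted p 0.00909). With the offsets CHD4 was not called (log2 fold change 0.56, edgeR adjusted p 0.133). TRIM28 itself had mean normalized counts of 23030 ± 490 in NS and 25920 ± 4210 in AH (SD, n = 3 each, log2 fold change 0.17, edgeR adjusted p 0.319), and the change was 0.03 without AH replicate 3. SETDB1 had a change of −0.21 (edgeR adjusted p 0.175), and of −0.22 with the offsets (edgeR adjusted p 0.0394).

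By position, 116 of the 287 genes lie on chromosome 19. There 13 (11.2%) fell and 1 (0.862%) rose, with a median log2 fold change of −0.147. Of the 171 genes elsewhere 28 (16.4%) fell and 6 (3.51%) rose, with a median of −0.136. Over all genes tested, 4.42% fell and 7.48% rose. The difference between the medians of both ZNF sets was not tested. The 576 other genes of chromosome 19 with a mean count of at least 200 had a median of 0.175, with 8 lower and 88 higher. Much of that rested on AH replicate 3: without it their median was 0.0423, with 19 lower and 112 higher, and with the length and GC offsets it was −0.014, with 36 lower and 75 higher. The chromosome 19 ZNF genes had medians of −0.154 and −0.141 in the same analyses, with 26 and 28 lower. The ZNF genes elsewhere had medians of −0.0885 and −0.162, with 40 and 50 lower and 11 and 8 higher.

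On other chromosomes the groups were small and the calls were unevenly placed. Of 12 ZNF genes on chromosome 8, 6 fell (ZNF703, ZNF572, ZNF250, ZNF623, ZNF696 and ZNF395) and 1 rose (ZNF706), with a median of −0.37. Of 7 on chromosome 9, 4 fell (ZNF169, ZNF367, ZNF510 and ZNF618), with a median of −0.522. None of the 9 on chromosome X passed the test. Over all genes tested, 4.42% fell and 7.48% rose. These chromosomes were picked after their values were seen. Their other genes were not compared, so a change of the whole chromosome cannot be told apart from one of its ZNF genes. Among 99 adjacent pairs of ZNF genes less than 50000 bases apart, no pair had both genes called in the same direction. Only 14.3% of the 287 ZNF genes were lower and 2.44% higher. Few such pairs would thus be found even if neighbours were unrelated, and the count is no result about neighbours.

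Related families were described for genes with a mean count of at least 200. Over all such genes 5.73% fell and 9.21% rose. Of 19 ZSCAN and ZKSCAN genes 4 fell (21.1%) and none rose, and the median log2 fold change was −0.216. The largest of these falls was that of ZKSCAN4 (log2 fold change −1.05, edgeR adjusted p 5.77e-05). Of 33 ZBTB genes 5 fell and 5 rose (15.2% each), with a median of −0.0879. ZBTB10 was the strongest riser, with 626.1, 508.3 and 517.9 normalized counts in NS and 1955, 2129 and 1535 in AH (log2 fold change 1.77, edgeR adjusted p 1.43e-06). Of 7 genes with a ZFP symbol 3 fell (42.9%) and 1 rose (14.3%). The riser was ZFP36, which is a CCCH zinc finger protein (tristetraprolin) that destabilizes AU-rich mRNAs rather than a C2H2 factor. ZBTB10, ZKSCAN4 and ZFP36 were named after their values were seen. Of the 118 tested ZNF genes under the minimum count, 10 fell (8.47%, against 4.42% of all genes tested) and none rose, with a median of −0.316. Without AH replicate 3, 11 of these fell (9.32%) and 3 rose (2.54%), with a median of −0.24. In that analysis 6 ZSCAN and ZKSCAN genes fell (31.6%, median −0.13). Of the ZBTB genes 9 then fell and 10 rose (27.3% and 30.3%, median −0.0356). Among genes with a mean count of at least 200, 10.1% then fell and 15.2% rose.

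After flagellin, no ZNF gene was called. Over all genes tested, only 0.368% were higher and 0.0115% lower, so 0 of 287 is near the share of all genes. At an unadjusted p under 0.05 (edgeR), 1 ZNF gene was higher and 4 were lower, against 2.73% and 1.06% of all genes tested, and DESeq2 also called 0. These 5, picked after their values were seen, were ZNF764 (log2 fold change 0.32) and ZNF432, ZNF510, ZNF627 and ZNF708 (−0.25, −0.31, −0.27 and −0.34), each with an edgeR adjusted p of at least 0.861. ZNF708 had normalized counts of 231, 259.2 and 249.7 in NS and 205.8, 203.7 and 172.3 in F. The median log2 fold change of the 287 genes was −0.0246, against 0.00484 over all genes tested. All of them lay between 0.788 and 1.25 times the NS level.

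The direct comparison of both stimuli gave the test of where they differ. Between AH and F, 30 ZNF genes (10.5%) were lower and 6 (2.09%) higher after ADP-heptose, against 2.76% and 5.4% of all genes tested and 3.63% and 6.85% of those with a mean count of at least 200. The median was −0.113, against 0.00652 over all genes tested. Without AH replicate 3, 54 ZNF genes (18.8%) were lower and 14 (4.88%) higher, and the median was −0.1. The shares of genes with a mean count of at least 200 were then 7.41% and 13.9%. All 36 genes called with all libraries had AH libraries that did not overlap the F libraries. Over the whole set, all AH libraries were below the F libraries in 89 of 287 genes and above in 24, against 12.8% and 14.2% of all genes tested. This comparison shares its AH libraries with the one against NS. Among the genes with the smallest p, ZNF792 (log2 fold change −1.29, edgeR adjusted p 2.87e-05), ZNF703 (−0.87, 1.71e-06), ZNF488 (−0.84, 0.000527) and ZNF398 (−0.62, 0.00015) fell, and ZNF697 (1.34, 6.56e-05), ZNF274 (0.82, 9.9e-05) and ZNF641 (0.77, 0.000479) rose. ZNF267 was called here (log2 fold change 0.39, edgeR adjusted p 0.0464), with 312.3, 281.5 and 273.1 normalized counts in F and 394.1, 385.7 and 354.1 in AH, but its call was lost in 14 of 18 alternatives.

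Of the 48 genes called between AH and NS, 12 overlap another tested gene, 7 of them a gene on the other strand. Whether the counting used strand is not stated in the sources used here, so reads of these overlapping genes cannot be told apart. ZNF319, whose call was lost without AH replicate 3 (edgeR adjusted p 0.0535), overlaps USB1, which had a mean normalized count of 1506 against 309.2 for ZNF319, and ZNF514 overlaps MRPS5 (702.6 against 549.7). ZNF584 overlaps ENSG00000232098, which had nearly the same level (325.7 against 327.2) and a log2 fold change of −0.68 against −0.52. ZNF genes also share long stretches of finger sequence, and how reads with several equal matches were counted is not stated, so values of close paralogs are uncertain.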

How the data were processed

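Poly(A) RNA of 9 HT-29 samples was sequenced. The deposited table holds raw counts per gene, made by the authors with HISAT2 and featureCounts; versions, build, annotation, strandedness and handling of multiply mapped reads are not given in the sources used here. The table had 62972 rows, and 232 identifiers listed more than once had identical counts and were kept once. Libraries held 30770448 to 58272772 counts, which sets the precision, and dispersion was estimated from 3 libraries per group. The labels do not say whether the 3 replicates were separate cultures; the study describes them as independent experiments, without saying whether samples with the same number shared one.

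Counts were fitted with edgeR 4.0.16 (R 4.3.3): filterByExpr, TMM, robust quasi-likelihood fit of all 9 libraries, 3 contrasts, Benjamini-Hochberg over 17412 genes, called at an adjusted p under 0.05. The fit was tested on simulated data. The SE is the log2 fold change divided by the square root of F. The study's methods used DESeq2 with a 2-fold threshold, and both were run as alternatives with DESeq2 1.42.0, along with other normalizations, filters, a replicate block, thinned libraries and each library left out. The wider NF-κB letters and offsets for transcript length and GC content were added after seeing the data. Positions, lengths and GC content came from GENCODE 29 (GRCh38), matched by identifier for all 287 genes. No protein table was used, so classes by domain were not analysed here.

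The genes, lists and tests were chosen with earlier results of these data known. Named genes were, in each comparison, the 12 largest rises and falls among called genes whose groups did not overlap. Also named were the lists of known roles and of corepressors and the 3 genes on either side of the minimum. The 5 highest and 5 lowest levels per kilobase were named too. Other ZNF genes given with values were picked after their values were seen, whether or not the text says so beside them.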

Additional observations from a re-analysis of the deposited data

Results flagged for a closer look

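For 21 of the named ZNF genes, the effects of ADP-heptose and flagellin differed in the direct test of one stimulus against the other (edgeR, adjusted p under 0.05, 3 libraries per group, all 3 AH libraries on one side of the F libraries). Most of these were named because they were called in this comparison, so the number that passed is no result of its own. Of all 287 ZNF genes, 10.5% were lower and 2.09% higher, against 2.76% and 5.4% of all genes tested. The log2 fold changes of ADP-heptose against flagellin were negative for ZNF792 (−1.29), ZNF703 (−0.87), ZNF488 (−0.84), ZNF169 (−0.79), ZNF608 (−0.78), ZNF816 (−0.77), ZNF780A (−0.73), ZNF112 (−0.70), ZNF891 (−0.70), ZNF398 (−0.62), ZNF92 (−0.60), ZNF572 (−0.60), ZNF250 (−0.60), ZNF224 (−0.58) and ZNF395 (−0.48). They were positive for ZNF697 (1.34), ZNF274 (0.82), ZNF641 (0.77), ZNF670 (0.52), ZNF267 (0.39) and ZNF706 (0.31).

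The calls were uneven in how they held. Under 18 alternatives the calls of ZNF792, ZNF703, ZNF488, ZNF169, ZNF608, ZNF816, ZNF398, ZNF572, ZNF224, ZNF395, ZNF697, ZNF274, ZNF641 and ZNF670 were lost in 0. Those of ZNF112, ZNF92 and ZNF706 were lost in 5 each, that of ZNF780A in 6, those of ZNF891 and ZNF250 in 9 each and that of ZNF267 in 14. Groups of 3 were not tested for a single library that stands apart.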

How the results depend on the processing

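The count of ZNF genes called between ADP-heptose and NS was 48 and ranged from 31 to 78 when 1 library was left out, with 78 without AH replicate 3 and 31 without NS replicate 3. It was 2 with a 2-fold threshold, 100 with library totals in place of TMM, 28 among the 165 genes with a mean count of at least 500, and 87 with the length and GC offsets. With the DESeq2 test and no fold threshold it was 60. With library totals, 95 ZNF genes (33.1%) were lower and 5 (1.74%) higher. The shares of genes with a mean count of at least 200 were then 14.6% and 6.04%, against 5.73% and 9.21% with TMM. Between ADP-heptose and flagellin the count of ZNF genes called was 36 and ranged from 18 to 68 with 1 library left out: 68 without AH replicate 3, 19 without flagellin replicate 1 or 2 and 18 without flagellin replicate 3. It was 2 with a 2-fold threshold, 18 with only 6 libraries in the fit, 64 with library totals, 19 at a mean count of at least 500 and 65 with offsets. With the DESeq2 test and no fold threshold it was 44. With library totals, 60 (20.9%) were lower and 4 (1.39%) higher, against 8.3% and 4.94% of genes with a mean count of at least 200. With offsets, 54 (18.8%) were lower and 11 (3.83%) higher, against 8.95% and 9.4%. No ZNF gene was called after flagellin in any of these analyses, and no gene called in the main analysis changed sign in any of them.

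Library totals shifted the median of all genes to −0.127 between ADP-heptose and NS, and the ZNF median to −0.271. They moved the ZNF median to −0.229 between ADP-heptose and flagellin and to −0.0411 between flagellin and NS. The last was −0.0344 with no filter on low counts and ranged from −0.0379 to −0.016 with 1 library left out. Of the genes named, ZNF581 reversed between ADP-heptose and NS with offsets (log2 fold change −0.20, edgeR adjusted p 0.0326). The cause of these changes was not tested.

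Correlations of deviations from the group means between libraries of the same replicate number ranged from −0.379 to 0.222. Not every library correlated best with its own number. Deviations within a group cancel out and AH replicate 3 stood apart, so these values cannot decide whether same-numbered samples shared an experiment. With the number as a replicate block, 43 genes were called between ADP-heptose and NS, 21 between ADP-heptose and flagellin and 0 after flagellin. Thinning every library to the smallest total gave 55 calls between ADP-heptose and NS and 34 between ADP-heptose and flagellin.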
